A study of Homo sapiens with 6 samples.

Results

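The genes described here encode the translation initiation factors (eIFs) and elongation factors (eEFs) of the cytoplasm, with the kinases, repressors and modifying enzymes that carry the same gene names. They are the rows of the count table whose symbol begins with EIF and a digit, or with EEF1 or EEF2. Of 71 such rows, 4 antisense RNAs and 2 pseudogenes were left out, which leaves 65 members among 26410 rows. The expression filter kept 56 of the 65, and 6 members have no count in any library. RNA came from Kasumi-1, an established human leukaemia line of the myeloid lineage in which RUNX1 is fused to RUNX1T1. There were 3 control libraries (lentivirus with a scrambled hairpin) and 3 libraries with a hairpin against PHF19 (shPHF19). All 6 libraries shared the cell line, the lentiviral delivery and the puromycin selection at 2 µg/ml. The PHF19 protein associates with Polycomb repressive complex 2, which methylates histone H3. The control samples carry the treatment label WT, whereas the series title and protocol name a scrambled hairpin. The cells are 1 line, and no source used here states the hairpin sequence or how many hairpins were used. The labels do not state that replicates were separate cultures, so the p-values rest on a spread between libraries that may be technical.

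Initiation begins when eIF2, bound to GTP and the initiator tRNA, joins the small ribosomal subunit together with eIF1, eIF1A, eIF3 and eIF5. The eIF4 complex recognises the mRNA cap, unwinds the leader and recruits the loaded subunit, which then scans for the start codon. eIF2B recharges eIF2 with GTP, and the EIF2AK kinases block that step under stress by phosphorylating eIF2. During elongation eEF1A brings aminoacyl-tRNA to the ribosome, the eEF1B subunits recharge eEF1A, and eEF2 moves the ribosome along. These proteins are abundant in proliferating cells, and the mRNAs of many of them begin with a run of pyrimidines, the terminal oligopyrimidine (TOP) element through which mTORC1 signalling controls their translation.

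The libraries held 14229878 to 16615143 counts. Values are CPM (counts scaled to a common library size) adjusted by the TMM factors of edgeR, which were 1.06 to 1.08 (control) and 0.919 to 0.945 (shPHF19). PHF19 itself stood at 168, 199 and 189 CPM in control replicates 1, 2 and 3 and at 41.1, 36.9 and 33.0 CPM in shPHF19 replicates 1, 2 and 3 (log2 fold change -2.32, SE 0.0975). The 7 markers listed for a myeloid blast were all present, with summed levels of 8129 to 8416 CPM (control) and 12705 to 13458 CPM (shPHF19). Most of the rise of the sum came from MPO (mean 4278 CPM in control and 8394 CPM in shPHF19 libraries). Of these 7, 4 rose (CD34, CD33, MPO and SPI1), PTPRC (-1.38) and RUNX1T1 (-0.37) fell, and KIT did not pass. Summed T cell markers (38.0 to 42.7 and 49.7 to 53.9 CPM) and epithelial markers (53.8 to 69.4 and 81.4 to 96.5 CPM) were higher in shPHF19 libraries, mostly through CD3D and EPCAM, while CD3E and CD8A fell. B cell, fibroblast and endothelial lists summed to no more than 13.7, 2.34 and 1.77 CPM. The part of these markers in the results below was not tested, and in bulk RNA fewer cells of a type and less RNA per cell cannot be told apart.

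Silencing of PHF19 was accompanied by changes in both directions among the translation factors. Of the 56 tested members 26 rose, 9 fell and 21 did not pass (edgeR quasi-likelihood test, Benjamini-Hochberg adjusted p under 0.05 over all genes). Among all 13014 genes tested 60.2% passed (29.4% higher and 30.9% lower), so the 35 members called, 62.5% of those tested, are close to the background. Counts by family and by list below are to be read against these same shares. The median log2 fold change was 0.18 over the members and -0.03 over all tested genes. EIF5A, EIF3B, EEF2KMT and EIF4A3 rose at least 2-fold and EIF1 fell at least 2-fold, where 16.6% of all genes were called with a change of that size. For 36 of the 56, all 3 shPHF19 values lay on 1 side of all control values (27 higher and 9 lower), against 63.5% of all tested genes. The split between directions depends on the scaling. Scaled by library totals only, the median of all genes was -0.24, 17 members rose and 17 fell, and among all genes 2590 rose and 5624 fell in place of 3820 and 4015. With upper-quartile factors that median was -0.14, and 19 members rose and 12 fell. The calls of EEF1B2, EEF1G, EIF2A, EIF2AK2, EIF3A, EIF3D and EIF6 were lost under that scaling.

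**Figure D1:**
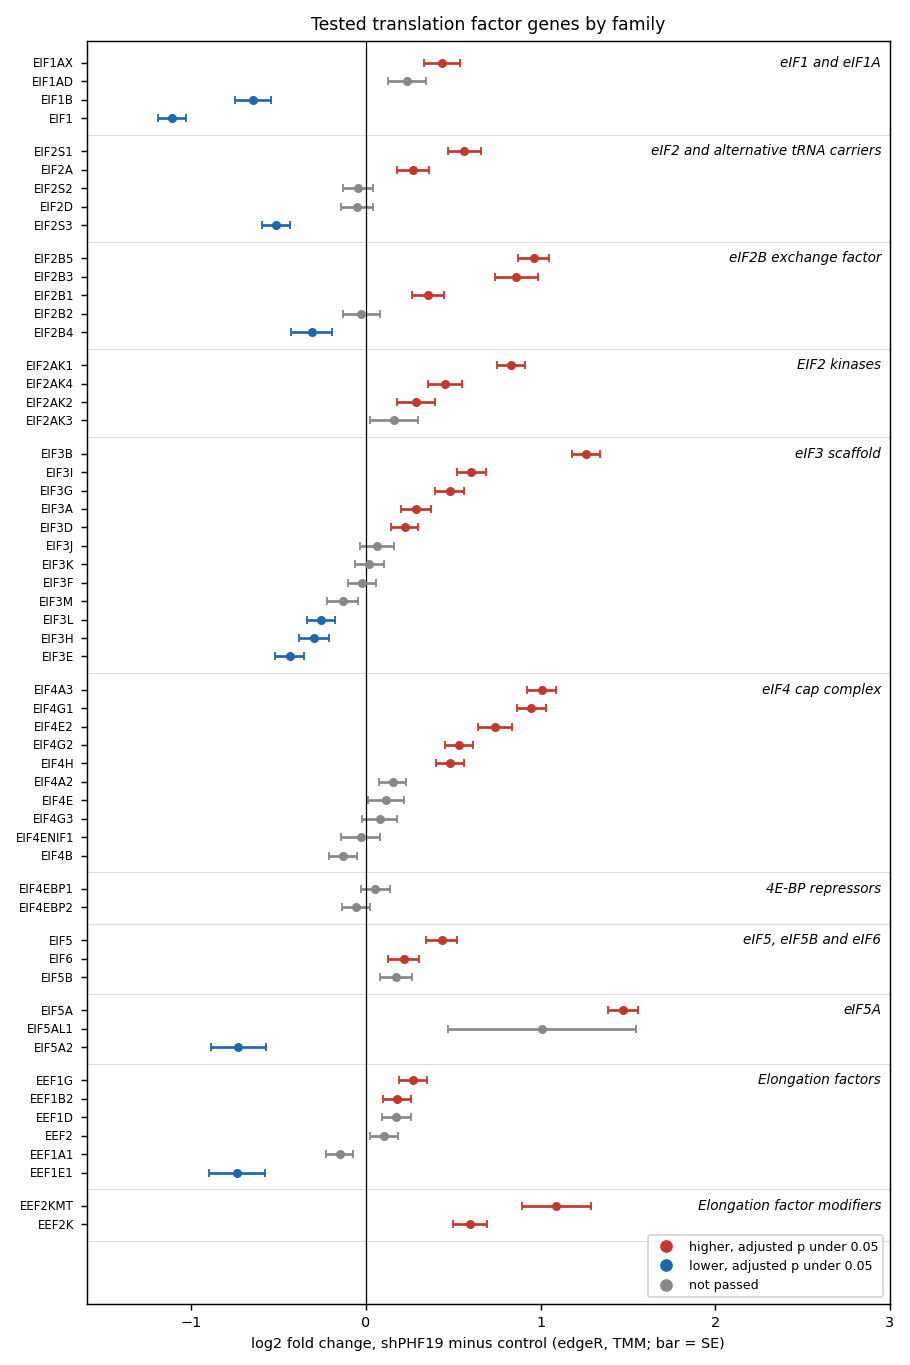
log2 fold changes (shPHF19 minus control, x axis) of the 56 tested translation factor genes, grouped by family, with bars of 1 SE and colour by the edgeR call. The values run from -1.11 for EIF1 to 1.47 for EIF5A, and most families hold both higher and lower genes.

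Of the 65 members 9 could not be tested. EIF4A1, the main cap helicase gene, and EIF3C and EIF3CL, near-identical copies of an eIF3 subunit gene, are listed at 0 in all 6 libraries. In GENCODE 29 transcripts, 100% of the 50-base words of the longest EIF4A1 transcript also occur in a transcript of another gene, and exons of the read-through gene SENP3-EIF4A1 and of small nucleolar RNAs cover 37.6% of its exons. For EIF3CL 98.8% and for EIF3C 50.3% of these words are shared, in each case with the other gene. EEF1G, whose words all occur in an annotated transcript of AP002990.1, held 55098 to 66501 counts. Unlike EIF4A1, its exons are not overlapped on the same strand by those of another gene in the count table. No source used here states whether reads were counted by strand or how shared reads were treated, and the part of shared sequence in these counts was not tested. Shared words also made up 45.0% of EEF1B2, 47.3% of EIF3L, 34.0% of EEF1E1 (with its read-through gene EEF1E1-BLOC1S5), 32.4% of EEF2KMT, 31.7% of EIF5A, 30.6% of EIF4B, 29.4% of EEF1A1, 23.2% of EIF2S3 and 22.6% of EIF2S2, so their values are less certain. EIF4E3, EEF1A2, EIF4E1B, EIF4EBP3 and EEF1E1-BLOC1S5 had too few counts to test. A Y-linked member was counted among the members and is not described.

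The 12 tested members whose transcripts were found to begin with a pyrimidine run had log2 fold changes of at most 0.52 in size. Genes with such a start were not limited to small changes in general. A start was classed as a pyrimidine start where the first transcribed base in RefSeq (GRCh38.p14) is C and at least 4 further C or T follow, in any of the gene's listed starts. Windows were at hand for 46 of the 56 tested members, and 12 of these had such a start. That compares with 724 (7.52%) of 9628 tested genes with a window and 4.07% of all 35116 windows. The 10 tested members without a window could not be classed. Of these EIF3E, EIF3H and EIF3L fell, EEF2KMT, EIF2AK1, EIF3A and EIF3G rose, and EEF1D, EIF2S2 and EIF4EBP1 did not pass. The windows below are examples of both classes. Each runs 5′ to 3′ over 30 bases, 15 on either side of the start, and capitals mark the pyrimidine run from the first transcribed base. The first 7 have the run. The last 4 do not, and were chosen for their large changes (at least 0.60 in size), so they do not represent the members without a run, of which EIF2B2 (-0.03), EIF4ENIF1 (-0.03) and EIF4EBP2 (-0.06) are among those that did not pass.
EEF1A1 (chr6:73521018-73521047, minus strand): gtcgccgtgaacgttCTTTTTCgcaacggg
EEF1B2 (chr2:206159880-206159909, plus strand): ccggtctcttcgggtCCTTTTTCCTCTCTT
EEF2 (chr19:3985449-3985478, minus strand): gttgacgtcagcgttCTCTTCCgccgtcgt
EIF4B (chr12:53006441-53006470, plus strand): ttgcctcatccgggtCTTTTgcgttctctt
EIF3D (chr22:36529152-36529181, minus strand): gcgcgcgcatgtttcCTCTTTTCCTggttt
EIF3F (chr11:7987322-7987351, plus strand): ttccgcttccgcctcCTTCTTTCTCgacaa
EIF2S3 (chrX:24054941-24054970, plus strand): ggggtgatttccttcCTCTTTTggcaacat
EIF3B (chr7:2354812-2354841, plus strand): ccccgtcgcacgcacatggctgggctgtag
EIF3I (chr1:32222392-32222421, plus strand): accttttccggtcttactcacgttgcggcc
EIF4A3 (chr17:80147114-80147143, minus strand): gttctcggcagcggcacagcgaggtcggca
EIF1 (chr17:41688870-41688899, plus strand): aggcaccgcccctctgccccagtcactgag

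The 12 members with a pyrimidine start were EEF1A1, EEF1B2, EEF2, EIF2A, EIF2D, EIF2S3, EIF3D, EIF3F, EIF3K, EIF3M, EIF4A2 and EIF4B. Their log2 fold changes ran from -0.52 (EIF2S3) to 0.27 (EIF2A) with a median of -0.0026, and 3 rose, 1 fell and 8 did not pass. The 34 tested members with other starts had a median of 0.32, and 19 rose, 5 fell and 10 did not pass. Among all tested genes the medians were -0.06 for 724 genes with a pyrimidine start and -0.01 for the others, a smaller gap than among the members. The 724 genes ran from -3.97 to 1.78, and 198 of them rose, 252 fell and 274 did not pass. The classes were compared after earlier results of these data were known, and no test of the difference was made. The E-box hexamer CACGTG, which reads the same on both strands, was found in the 300-base window of 12 of the 46 members, of 12.8% of tested genes and of 7.26% of all windows. Of its 12 holders among the members 6 rose (EIF4G1, EIF4A3, EIF4H, EIF2B3, EEF2K and EIF2AK2) and 2 fell (EIF1B and EIF5A2). The other 4 did not pass (EIF3F, EIF3K, EIF4B and EIF4E). The median log2 fold change was 0.20 for members with the hexamer and 0.20 for those without it. Among all tested genes these medians were 0.09 and -0.03.

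**Figure D2:**
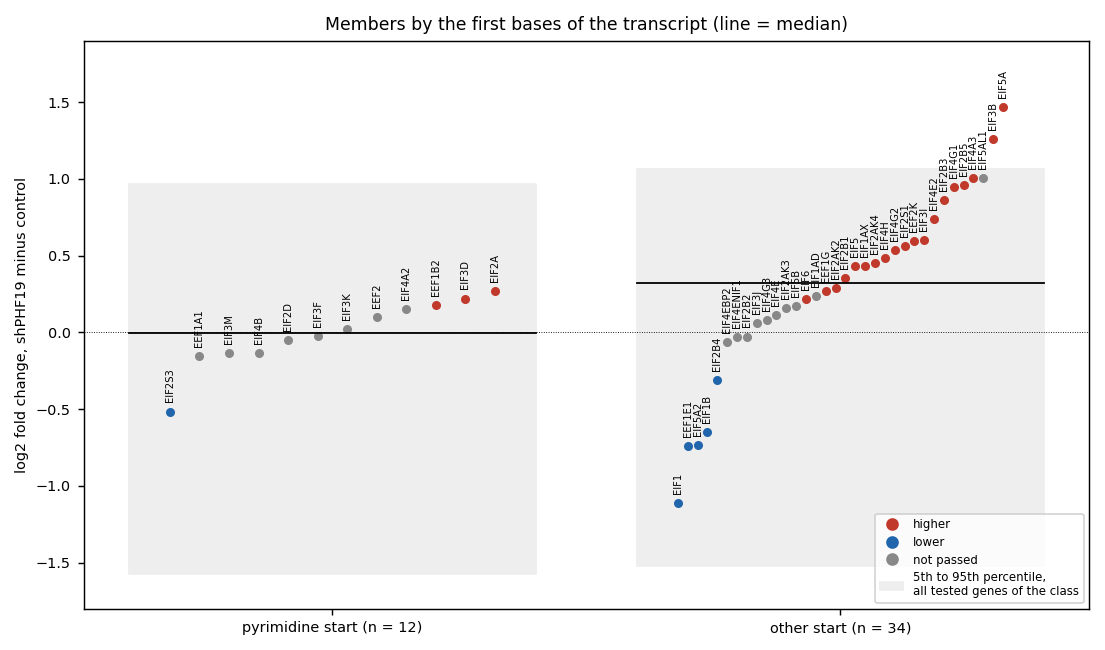
log2 fold change (y axis) of tested members with a pyrimidine start (n = 12) and with another start (n = 34), each point a gene coloured by its call, with the group median as a line. Grey bands span the 5th to 95th percentile of all tested genes of each class, and the members with a pyrimidine start lie within -0.52 to 0.27.

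The start codon factors moved apart. EIF1, which keeps the scanning ribosome open until a start codon is found, stood at 1722, 1835 and 1642 CPM in the control libraries and at 878, 778 and 750 CPM in the shPHF19 libraries. Every shPHF19 value was below every control value (log2 fold change -1.11, SE 0.081, adjusted p = 2.25e-16). Its paralog EIF1B fell from 59.8 ± 6.73 to 38.2 ± 1.28 CPM (SD, n = 3; -0.65). EIF1AX, which encodes the partner factor eIF1A, rose (0.43, adjusted p = 0.000367), but its groups overlapped, at 146, 105 and 115 CPM in control and 130, 176 and 189 CPM in shPHF19 libraries. EIF1AX was no longer called when libraries were scaled by totals only (0.23, adjusted p = 0.0717). EIF5, the GTPase-activating protein of eIF2, rose from 215 ± 20.8 to 290 ± 38.7 CPM (SD, n = 3; 0.43, adjusted p = 4.78e-05). EIF1AD, named for its similarity to eIF1A, and EIF5B, which joins the large subunit, did not pass (0.23, adjusted p = 0.0544; 0.17, adjusted p = 0.109). EIF1AD was called by DESeq2 (0.25, adjusted p = 0.0326) and limma-voom (0.24, 0.0473). EIF5B was called without shPHF19 replicate 1 (0.25, adjusted p = 0.02) and with the trend on transcript GC content removed (0.38, adjusted p = 1.09e-05). EIF6, which keeps the ribosomal subunits from joining, rose by a small amount (0.22, adjusted p = 0.0326). The call of EIF6 did not hold once control replicate 1 was left out (0.16, adjusted p = 0.14), nor without control replicate 3 (0.24, 0.054), without shPHF19 replicate 1 (0.15, 0.152) or without shPHF19 replicate 2 (0.23, 0.0687), with the replicate number as a block (0.22, 0.0936), and with library totals only (0.01, 0.933).

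The 3 subunits of eIF2 did not move together. EIF2S1, the alpha subunit that the stress kinases phosphorylate, was at 69.5, 61.6 and 71.5 CPM in control and at 90.9, 98.7 and 110 CPM in shPHF19 libraries, with no overlap (0.56, SE 0.095, adjusted p = 1.54e-06). EIF2S3, the gamma subunit that binds GTP and tRNA, was at 634, 567 and 568 CPM in control and at 383, 422 and 433 CPM in shPHF19 libraries, again with no overlap (-0.52, SE 0.081, adjusted p = 4.39e-07). EIF2S2, the beta subunit, had a log2 fold change of -0.05 (adjusted p = 0.654). EIF2A, a separate carrier of initiator tRNA, rose (0.27, adjusted p = 0.0104), with groups that overlapped. EIF2A was not called without control replicate 3 (0.25, adjusted p = 0.0503) or shPHF19 replicate 2 (0.23, adjusted p = 0.08), nor with library totals only (0.07, adjusted p = 0.561). EIF2D, which can also deliver tRNA and acts in ribosome recycling, had a log2 fold change of -0.05 (adjusted p = 0.643). With library totals only, EIF2D (-0.26, adjusted p = 0.0127) and EIF2S2 (-0.25, adjusted p = 0.0107) were called lower.

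Among the 5 subunits of eIF2B, 3 rose, 1 fell and 1 did not pass (80% called, against 60.2% of all tested genes). EIF2B5, the catalytic epsilon subunit, was at 83.6, 98.7 and 83.4 CPM in control and at 177, 180 and 160 CPM in shPHF19 libraries (1.94-fold, log2 0.96, SE 0.089, adjusted p = 4.84e-13). EIF2B3, the gamma subunit that pairs with it in the catalytic part, rose from 18.6 ± 1.67 to 33.7 ± 1.57 CPM (SD, n = 3; 0.86, adjusted p = 6.44e-08). The genes of the regulatory part differed among themselves: EIF2B1 (alpha) rose (0.36, adjusted p = 0.000887), EIF2B2 (beta) did not pass (-0.03, adjusted p = 0.847) and EIF2B4 (delta) fell (-0.31, adjusted p = 0.0205). EIF2B4 stood at 37.6, 44.2 and 35.3 CPM in control and 35.6, 31.8 and 27.1 CPM in shPHF19 libraries, so its groups overlapped. EIF2B4 was no longer called once control replicate 2 (-0.20, adjusted p = 0.184) was left out, nor without shPHF19 replicate 2 (-0.31, 0.0551) or without shPHF19 replicate 3 (-0.21, 0.15). The call of EIF2B1 was lost with library totals only (0.15, adjusted p = 0.145).

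Of the 4 kinase genes that act on eIF2, 3 rose (75% called, against 60.2% of all tested genes). EIF2AK1 (HRI), which senses haem and relays mitochondrial stress, was at 154, 160 and 162 CPM in control and 280, 281 and 284 CPM in shPHF19 libraries, a narrow spread on both sides (1.78-fold, log2 0.83, SE 0.081, adjusted p = 2.41e-12). EIF2AK4 (GCN2), which senses amino acid shortage, was at 50.2, 51.9 and 48.0 CPM in control and 69.2, 67.8 and 68.3 CPM in shPHF19 libraries (0.45, adjusted p = 8.47e-05). EIF2AK2 (PKR), which binds double-stranded RNA, rose from 37.7 ± 4.15 to 46.0 ± 2.71 CPM (SD, n = 3; 0.29, adjusted p = 0.0212). That call was lost without control replicate 2 (0.21, adjusted p = 0.122) or shPHF19 replicate 3 (0.25, 0.0707), and with library totals only (0.08, 0.535). EIF2AK3 (PERK), the kinase of the endoplasmic reticulum, did not pass (0.16, adjusted p = 0.313), and its values of 22.2, 17.8 and 23.7 against 22.4, 21.1 and 27.6 CPM overlapped.

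Of 9 measured genes from a list of 10 regulators of eIF2 and its exchange, 3 rose, 4 fell and 2 did not pass. PPP1R15A (GADD34), the stress-induced subunit of the phosphatase that reverses the kinases, fell (-2.40), and its constitutive relative PPP1R15B fell by less (-0.24, adjusted p = 0.0154), a call lost with GC and length trends removed (-0.09, 0.138). BZW2, an eIF5 mimic, rose from 92.6 to 192 CPM (1.05), while its paralog BZW1 had a log2 fold change of -0.02 (adjusted p = 0.874). ABCF1, a partner of eIF2 on the ribosome, rose (0.42).

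The subunit genes of eIF3, the scaffold of the initiating small subunit, differed in direction. Of the 12 tested 66.7% were called, against 60.2% of all tested genes. All 3 genes of the module formed by subunits b, g and i rose. EIF3B was at 234, 242 and 232 CPM in control and 590, 551 and 556 CPM in shPHF19 libraries, with no overlap (2.40-fold, log2 1.26, SE 0.081, adjusted p = 2.08e-18). EIF3I rose from 169 ± 10.6 to 257 ± 17.8 CPM (0.60) and EIF3G from 172 ± 8.59 to 239 ± 22.5 CPM (0.48; SD, n = 3 in each). Of the 8 genes of the core built from PCI and MPN domain subunits, 1 rose, 3 fell, 3 did not pass and EIF3C was not tested.

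EIF3E stood at 449, 378 and 406 CPM in control and 276, 313 and 321 CPM in shPHF19 libraries (-0.44, SE 0.084, adjusted p = 1.53e-05). EIF3H (-0.30, adjusted p = 0.00247) and EIF3L (-0.26, adjusted p = 0.00432) fell as well, and in all 3 genes no shPHF19 value reached the lowest control value. EIF3A, which encodes the largest subunit, rose (0.28, adjusted p = 0.00449), and EIF3D, a peripheral subunit that can bind the cap, rose (0.22, adjusted p = 0.0144). The call of EIF3A was lost without control replicate 2 (0.20, adjusted p = 0.0616) and with library totals only (0.08, 0.448). EIF3D was not called without control replicate 3 (0.21, adjusted p = 0.0531) or shPHF19 replicate 2 (0.22, 0.0708), with the replicate number as a block (0.22, 0.0621), or with library totals only (0.01, 0.876). EIF3F (-0.02), EIF3K (0.02), EIF3M (-0.13) and EIF3J (0.06) did not pass. With library totals only, EIF3F (-0.23, adjusted p = 0.00889), EIF3K (-0.19, 0.0433) and EIF3M (-0.34, 0.00136) were called lower. EIF3M was also called lower with upper-quartile factors (-0.24, adjusted p = 0.0183). The rises of EIF3B, EIF3G and EIF3I and the falls of EIF3E, EIF3H and EIF3L were called under each of the 15 alternatives. The grouping by position was made after the values were seen, and the difference between the groups was not tested. Transcript GC content moved with it, at 56.0%, 60.3% and 51.2% in EIF3B, EIF3G and EIF3I against 37.9%, 40.2% and 49.6% in EIF3E, EIF3H and EIF3L. With the trends on GC content and length removed, EIF3B (1.11), EIF3G (0.23) and EIF3I (0.43) were still higher and EIF3E (-0.28), EIF3H (-0.14) and EIF3L (-0.33) still lower, whereas EIF3F (0.23), EIF3J (0.23) and EIF3M (0.13) were called higher, EIF3K (-0.19) was called lower and EIF3D lost its call (0.08, adjusted p = 0.114).

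**Figure D3:**
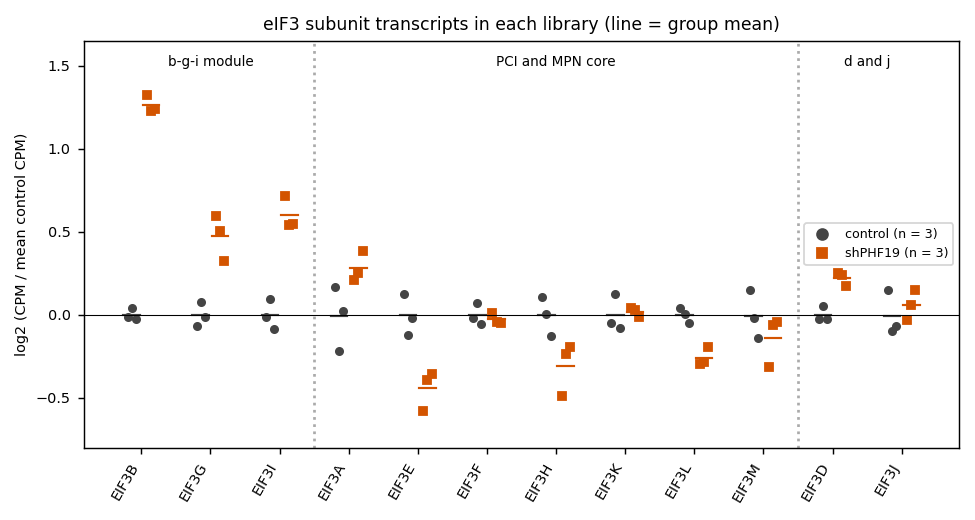
eIF3 subunit transcripts in each library as log2 of CPM over the mean control CPM (y axis), with control (circles) and shPHF19 libraries (squares) and a line at each group mean. EIF3B, EIF3G and EIF3I lie above all control values, and EIF3E, EIF3H and EIF3L lie below them.

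Of the 10 tested genes with EIF4 names, the eIF4E-binding repressors aside, 5 rose and none was called lower. That is 50% called, against 60.2% of all tested genes. The group goes by gene name, not by membership of the cap complex. EIF4A3, EIF4E2 and EIF4G2, relatives with other roles given below, are among those that rose. The calls differed between paralogs. EIF4G1, the main scaffold that joins the cap-binding protein to eIF3, was at 465, 521 and 516 CPM in control and 1021, 993 and 882 CPM in shPHF19 libraries (1.93-fold, log2 0.95, SE 0.082, adjusted p = 5.05e-14). EIF4G2 (DAP5), a relative that lacks the site for eIF4E, rose from 906, 830 and 846 CPM to 1149, 1241 and 1350 CPM (0.53, adjusted p = 1.6e-07). EIF4G3 did not pass (0.08, adjusted p = 0.514; called at 0.16, adjusted p = 0.0496, with GC and length trends removed), with values of 58.4, 52.8 and 63.2 against 61.0, 58.1 and 65.0 CPM. Within each library the log2 ratio of EIF4G1 to EIF4G3 counts was 0.87 ± 0.14 (SE) higher in shPHF19 than in control libraries, and that of EIF4G1 to EIF4G2 was 0.41 ± 0.16 higher. Such ratios do not depend on library scaling, but trends on GC content and length can alter them. With these trends removed, the changes of EIF4G1 (0.86) and EIF4G2 (0.78) were close to each other. Each pair of genes was tested by an exact 2-sided permutation test, in which 3 libraries against 3 cannot go below p = 0.1. Of 11 pairs that could be formed 7 reached that value, which is 0.157 when adjusted over the pairs, so none passes, and 3 further pairs with EIF4A1 or EEF1A2 had counts of 0.

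EIF4E, the cap-binding protein itself, did not pass (0.11, adjusted p = 0.359), at 49.2, 45.6 and 45.1 CPM in control and 43.7, 53.7 and 53.8 CPM in shPHF19 libraries. EIF4E2, a related cap-binding protein that can repress translation, rose from 52.1 ± 3.47 to 87.0 ± 0.690 CPM (SD, n = 3; 0.74, SE 0.095, adjusted p = 4.17e-09). The log2 ratio of EIF4E to EIF4E2 was 0.63 ± 0.098 (SE) lower in shPHF19 libraries, with no overlap between groups (p = 0.1, exact permutation test). With the GC trend removed EIF4E was called higher (0.31, adjusted p = 0.000827), as with GC and length trends removed (0.42, 1.7e-05). Of the helicases, EIF4A3, a component of the exon junction complex, was at 152, 156 and 148 CPM in control and 323, 296 and 299 CPM in shPHF19 libraries (2.01-fold, log2 1.01, SE 0.082, adjusted p = 8.32e-15). EIF4A2, the paralog of EIF4A1, did not pass (0.15, adjusted p = 0.0915), but it was called without shPHF19 replicate 1 (0.19, adjusted p = 0.0358) and by DESeq2 (0.17, adjusted p = 0.0255). EIF4A2 was also called with the GC trend removed (0.36, adjusted p = 3.74e-07) and with GC and length trends removed (0.42, 1.09e-09). Of the helicase cofactors, EIF4H rose from 450 ± 7.47 to 629 ± 20.2 CPM (SD, n = 3; 0.48), and EIF4B did not pass (-0.13, adjusted p = 0.148). EIF4B was called lower with library totals only (-0.34, adjusted p = 0.000235), with upper-quartile factors (-0.23, 0.00922), with the GC trend removed (-0.14, 0.0196) and with GC and length trends removed (-0.14, 0.0089). EIF4ENIF1 (4E-T), which carries eIF4E to the nucleus and to processing bodies, had a log2 fold change of -0.03 (adjusted p = 0.83).

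Neither tested gene of the eIF4E-binding repressors passed. EIF4EBP1, the best known target of mTORC1 among them, stood at 147, 174 and 162 CPM in control and 175, 167 and 159 CPM in shPHF19 libraries (0.05, SE 0.085, adjusted p = 0.606). EIF4EBP2 stood at 353, 338 and 372 CPM and at 328, 338 and 354 CPM (-0.06, SE 0.08, adjusted p = 0.539). Both sets of values overlapped between groups. The log2 ratio of EIF4E to EIF4EBP1 differed by 0.05 ± 0.17 (SE; exact permutation test, p = 0.9). The direction of EIF4EBP1 depended on the setting: with GC and length trends removed it was called lower (-0.27, adjusted p = 1.06e-05) and EIF4EBP2 higher (0.11, adjusted p = 0.027), and with library totals only EIF4EBP2 was called lower (-0.27, adjusted p = 0.00388). Of 10 listed genes of mTORC1, its regulators and the kinases that act on the cap complex, 6 rose, none was called lower and 4 did not pass. The share called is close to the 60.2% of all tested genes called in either direction. With library totals only, 4 were higher and 1 lower. RPS6KB2 (0.70), RPTOR (0.62) and MTOR (0.59) had the smallest adjusted p.

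**Figure D4:**
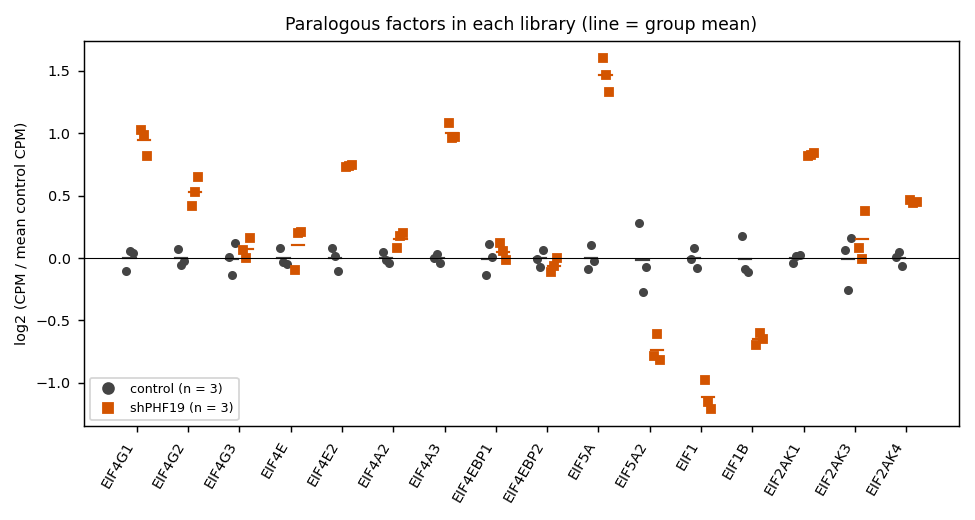
Paralogous initiation factors and regulators in each library as log2 of CPM over the mean control CPM (y axis), with control (circles) and shPHF19 libraries (squares) and a line at each group mean. EIF4G1 stands above its controls while EIF4G3 overlaps them, and EIF5A and EIF5A2 lie on opposite sides of 0.

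Of 14 listed partners at the cap, the poly(A) tail and the helicases, 5 rose, 5 fell and 4 did not pass. PAIP2, an inhibitor of poly(A)-binding protein, fell from 134 to 80.5 CPM (-0.73), and PDCD4, an inhibitor of eIF4A, fell from 100 to 59.8 CPM (-0.75). With library totals only, 2 of the 14 rose and 8 fell. PAIP1, which stimulates translation through the same protein, rose from 79.6 to 123 CPM (0.63). PABPC1, the main cytoplasmic poly(A)-binding protein, had a log2 fold change of -0.11 (adjusted p = 0.198).

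The paralogs of eIF5A moved in opposite directions. eIF5A relieves stalled ribosomes at difficult peptide bonds and is the protein known to carry hypusine, a residue made from spermidine. EIF5A stood at 168, 193 and 176 CPM in control and 543, 496 and 450 CPM in shPHF19 libraries (2.77-fold, log2 1.47, SE 0.086, adjusted p = 8.23e-20), the largest rise among the members. EIF5A2 stood at 23.0, 15.7 and 18.0 CPM in control and 11.0, 12.4 and 10.7 CPM in shPHF19 libraries (-0.73, SE 0.16, adjusted p = 7.74e-05). Neither gene's groups overlapped, and the log2 ratio of EIF5A to EIF5A2 was 2.19 ± 0.24 (SE) higher in shPHF19 libraries (p = 0.1, exact permutation test). EIF5AL1, an intronless copy of EIF5A that shares 50-base words with it, had 6 to 19 counts per library and did not pass (1.01, adjusted p = 0.104). Among the hypusine enzymes, DOHH rose (0.59, adjusted p = 0.000141) and DHPS, which starts the modification, did not pass (0.18, adjusted p = 0.11).

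The elongation factors hold most of the counts of the members, and of the 6 tested 2 rose, 1 fell and 3 did not pass. All members together took 4.53, 4.62 and 4.56% of counts in control and 3.89, 4.17 and 4.03% in shPHF19 libraries. EEF1A1 alone took 1.97 ± 0.0213% and 1.54 ± 0.164% (SD, n = 3). These are shares of unadjusted library totals and leave out the TMM factors (1.06 to 1.08 in control, 0.919 to 0.945 in shPHF19 libraries). They therefore do not show a fall of the members in scaled values. The median log2 fold change of the tested members was 0.18 with TMM factors and -0.03 with library totals only. In scaled values EEF1A1 stood at 18570, 18591 and 17978 CPM in control and 14780, 18038 and 16809 CPM in shPHF19 libraries. Replicate 2 of the shPHF19 libraries lay among the controls, and the change did not pass (-0.15, SE 0.08, adjusted p = 0.0954). EEF1A1 was called lower with library totals only (-0.36, adjusted p = 7.14e-05), with upper-quartile factors (-0.25, 0.0048), by limma-voom (-0.16, 0.0392) and with the GC trend removed (-0.15, 0.0305). EEF2, the translocase, stood at 6435, 7479 and 7369 CPM in control and 8255, 7628 and 6957 CPM in shPHF19 libraries (0.10, adjusted p = 0.282), with overlap between the groups.

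The subunits of eEF1B, which recharges eEF1A, differed in their calls. EEF1G, the structural subunit, rose from 3450, 3827 and 3573 CPM to 4678, 4309 and 4073 CPM (0.27, SE 0.079, adjusted p = 0.00324). Of the genes for the exchange subunits, EEF1B2 was just past the threshold (0.18, adjusted p = 0.0498) and EEF1D just short of it (0.17, adjusted p = 0.0694). EEF1B2 lost its call without control replicate 1 (0.20, adjusted p = 0.0582), without control replicate 3 (0.12, 0.268) and without shPHF19 replicate 2 (0.17, 0.164). The same held with the replicate number as a block (0.18, adjusted p = 0.118), and with library totals only EEF1B2 turned lower (-0.03, 0.774). EEF1D was called without control replicate 2 (0.24, adjusted p = 0.0188) or shPHF19 replicate 3 (0.23, 0.0236), and EEF1G was not called with library totals only (0.06, 0.47). EEF1E1, which despite its name belongs to the complex of aminoacyl-tRNA synthetases, fell from 17.2 ± 2.27 to 10.3 ± 1.78 CPM (SD, n = 3; -0.74, adjusted p = 9.6e-05).

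EEF2K and EEF2KMT, the members whose products modify eEF2, both rose. EEF2K, the kinase that inhibits eEF2, stood at 56.4, 57.8 and 51.3 CPM in control and 94.1, 77.2 and 79.1 CPM in shPHF19 libraries (1.51-fold, log2 0.60, SE 0.098, adjusted p = 1.01e-06). EEF2KMT, which methylates eEF2, rose from 5.01 ± 1.12 to 10.7 ± 1.73 CPM (SD, n = 3; 1.09, adjusted p = 6.33e-06), and 29.2% of its exons overlap those of ALG1 on the opposite strand. The log2 ratio of EEF2 to EEF2K was 0.49 ± 0.11 (SE) lower in shPHF19 libraries (p = 0.1, exact permutation test). Of 9 listed genes of hypusine and diphthamide synthesis, the latter a modification of eEF2, 5 rose, 2 fell and 2 did not pass, among them DPH2 (1.04) and DPH5 (-0.93).

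The steps after elongation and the mitochondrial factors were also mixed. Of 12 genes of termination, recycling and ribosome rescue 4 rose, 4 fell and 4 did not pass, and with library totals only 1 rose and 8 fell. GTPBP2, which helps rescue stalled ribosomes, fell from 201 to 78.4 CPM (-1.36), and PELO, a rescue factor, rose (0.75). GSPT2, a paralog of the termination factor gene GSPT1, fell (-1.67, SE 0.34) but rests on few counts. GSPT2 held 86, 70 and 58 counts in control and 7, 19 and 34 counts in shPHF19 libraries. Of 11 measured mitochondrial factors 4 rose, 3 fell and 4 did not pass, with the elongation factor genes TUFM (0.78) and TSFM (0.70) higher and the initiation factor gene MTIF2 lower (-0.77). Of 6 genes of selenocysteine incorporation 2 rose, 2 fell and 2 did not pass (1 higher and 4 lower with library totals only), and SEPSECS, which makes selenocysteinyl-tRNA, fell from 61.5 to 18.2 CPM (-1.75).

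The authors' deposited table lists 24 of the members, 18 higher and 6 lower. All 24 were called here in the same direction, and the log2 fold changes of the authors' deposited table differed from those given above by at most 0.07. The smallest absolute log2 fold change in the authors' deposited table is 0.32 and its largest adjusted p is 0.00993. The other members called here are not in the authors' deposited table, among them EIF1AX, whose log2 fold change here (0.43) was above that size and whose adjusted p by DESeq2 here was 0.0482.

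**Figure D5:**
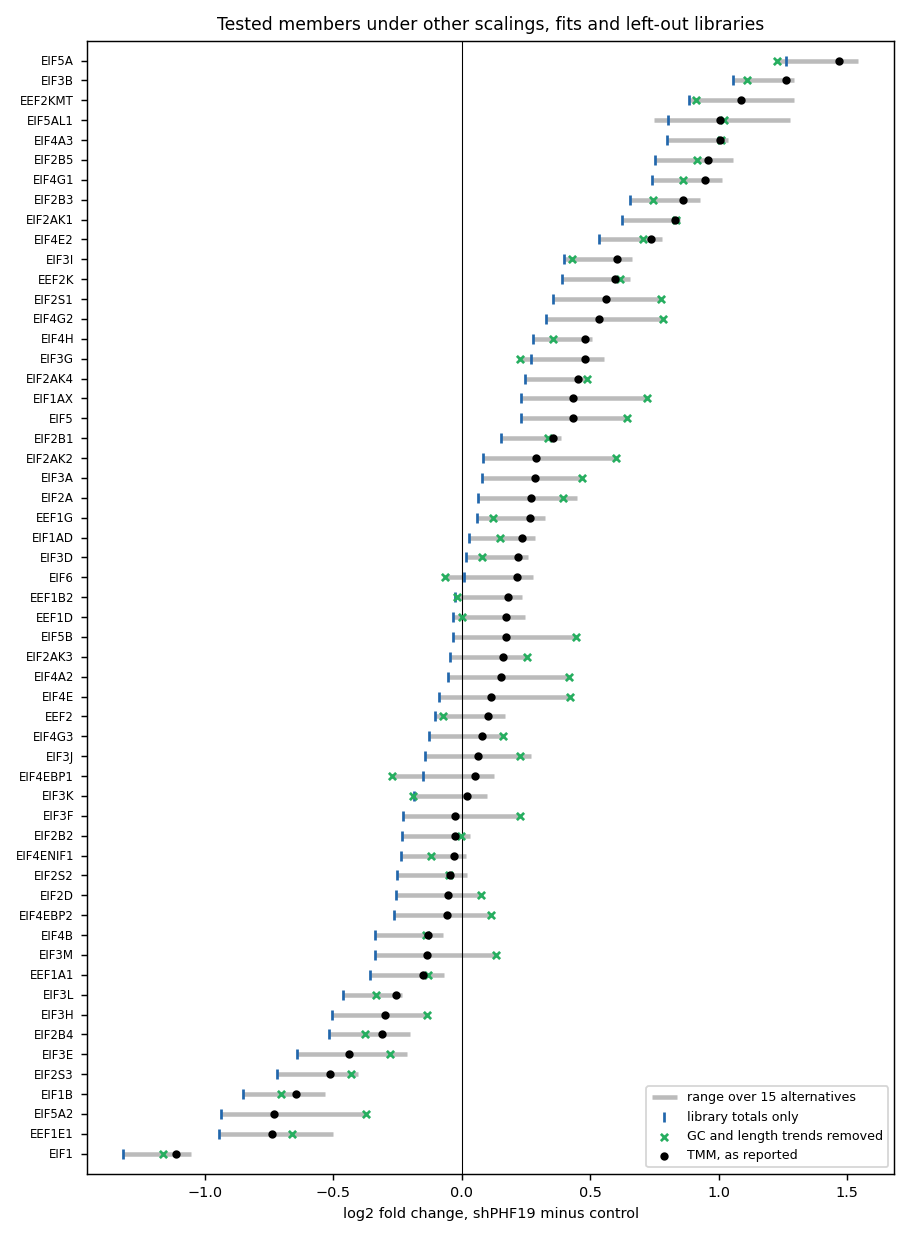
log2 fold change (x axis) of each tested member as reported (black points), with library totals only (blue ticks), with GC and length trends removed (green crosses) and the range over 15 alternatives (grey bars). EIF5A, EIF3B and EIF4A3 stay to the right of 0 and EIF1, EIF1B and EIF5A2 to the left over the whole range, while bars of members near 0 cross it.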

How the data were processed

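The tools named, per the submitters' processing notes, are HTSeq 0.11.2 and HISAT2 2.1.0, with build hg38; no source used here gives the annotation or strand setting. The authors deposited whole-number counts per gene symbol, not normalized. A second table, deposited by the authors, holds their comparison, with a mean normalized signal, log2 fold changes and p-values per gene. The 6 libraries were grouped by title. Counts were tested with edgeR 4.0.16 (R 4.3.3): filterByExpr, TMM, robust quasi-likelihood F test with group as the only term, Benjamini-Hochberg adjustment over 13014 genes, threshold 0.05. Each SE was taken as the absolute log2 fold change over the square root of F. A count of 0 allows up to 3 counts, 0.177 to 0.223 CPM here (counting error only). Replicate pairs gave a chi-square per degree of freedom of 4.79 to 12.4, so none was a duplicate. On simulated counts for this comparison (12854 genes), 86 of 100 genes changed 2-fold and 61 of 100 genes with a log2 change of 0.5 were recovered, with 9 false calls. The simulation changed only these genes, as many up as down, without a scaling difference between groups. In the data 60.2% of genes were called and the TMM factors differed by group, so these rates may not hold there.

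Alternatives were DESeq2 1.42.0, limma-voom (limma 3.58.1), other scalings and filters, a replicate block, each library left out and, added after seeing the data, edgeR with trends on GC content alone or with length removed. GC content, exon overlaps and shared 50-base words were computed from GENCODE 29 transcripts (GRCh38). A GC value was found by symbol for all 56 tested members and 94.0% of tested genes. Start windows came from RefSeq (GRCh38.p14). All members passing the filter could be named; library values are given for PHF19, for up to 5 members per family with the smallest adjusted p, for members of a pair and for those that describe a family. Up to 3 genes of each context list are named by smallest adjusted p; PPP1R15B, BZW1, PABPC1 and DHPS were named after their values were seen. Members and lists were chosen with earlier results of these data known.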

Additional observations from a re-analysis of the deposited data

How the results depend on the processing

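Of the 26 members that rose, 17 were called higher under each of the 15 alternatives, and of the 9 that fell, 8 were called lower under each, the exception being EIF2B4. With each library left out in turn, 22 to 27 members rose and 8 to 9 fell, and among all genes 3473 to 3790 rose and 3626 to 3969 fell. Library totals only gave 17 members higher and 17 lower. This scaling lowers every log2 fold change by about the same amount. Upper-quartile factors gave 19 higher and 12 lower. Calls lost there were EEF1B2 (0.08, adjusted p = 0.417), EEF1G (0.16, 0.0659), EIF2A (0.17, 0.111), EIF2AK2 (0.18, 0.14), EIF3A (0.18, 0.0644), EIF3D (0.12, 0.195) and EIF6 (0.11, 0.274). EEF1A1, EIF3M and EIF4B were called lower there and not in the test as reported. With the replicate number as a block 23 members rose and 9 fell, the calls of EEF1B2, EIF3D and EIF6 being lost and no other member's call changing. The labels do not say that the numbers mark shared cultures, and deviations of same-numbered libraries correlated at -0.44, -0.05 and -0.12, so the numbers were not taken to pair the libraries. Of the differently numbered pairs, control replicate 1 and shPHF19 replicate 3 had the highest correlation (0.43). No sample correlated best with its own number.

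Directions turned for 19 members, all small changes, and apart from EEF1B2 and EIF6 none of them passed the test as reported. With library totals only the values were -0.027 for EEF1B2, -0.034 for EEF1D, -0.11 for EEF2, -0.044 for EIF2AK3, -0.14 for EIF3J and -0.19 for EIF3K. They were -0.053 for EIF4A2, -0.091 for EIF4E, -0.15 for EIF4EBP1, -0.13 for EIF4G3 and -0.034 for EIF5B. Upper-quartile factors gave -0.0017 for EEF2, -0.038 for EIF3J, -0.084 for EIF3K, -0.050 for EIF4EBP1 and -0.025 for EIF4G3. Removing the GC trend gave -0.055 for EEF2, 0.018 for EIF2D, 0.14 for EIF3F, -0.070 for EIF3K, 0.084 for EIF3M and -0.10 for EIF4EBP1. It also gave 0.025 for EIF4EBP2. Removing GC and length trends gave -0.020 for EEF1B2, -0.00091 for EEF1D, -0.074 for EEF2, 0.075 for EIF2D, 0.23 for EIF3F and -0.19 for EIF3K. It also gave 0.13 for EIF3M, -0.27 for EIF4EBP1, 0.11 for EIF4EBP2 and -0.067 for EIF6. With each library left out in turn the values ran from -0.051 to 0.030 for EIF2B2, -0.084 to 0.021 for EIF2S2, -0.050 to 0.027 for EIF3F, -0.017 to 0.099 for EIF3K, -0.010 to 0.13 for EIF4EBP1 and -0.051 to 0.017 for EIF4ENIF1. The log2 ratio of EIF4E to EIF4EBP1 then ran from -0.032 to 0.18. The cause of these turns was not tested.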

Other observations

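Across the 56 tested members the log2 fold change and the GC content of the longest transcript had a Spearman correlation of 0.36 (Pearson 0.37), and across the 12236 tested genes with a value it was 0.17 (Pearson 0.11). These are descriptions across genes, which share the same libraries and are not independent replicates. With GC and length trends removed, the members with the largest upward shifts were EIF5A2 (-0.37 in place of -0.73), EIF2AK2 (0.60 in place of 0.29), EIF4E (0.42 in place of 0.11), EIF1AX (0.72 in place of 0.43) and EIF5B (0.45 in place of 0.17). EIF4E and EIF5B were called higher there and not in the test as reported. EIF5A (1.23), EIF3B (1.11), EIF4G1 (0.86) and EIF4A3 (1.01) kept their direction and their call in that fit.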
